A study of Callithrix jacchus with 4 samples.

Results

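The genes described here are 10 members of the tumour necrosis factor (TNF) and NF-κB pathway, taken by symbol from a count table of 35108 genes. They are the cytokine gene TNF, its receptor gene TNFRSF1A, the NF-κB subunit genes NFKB1, NFKB2, RELA and RELB, and 4 genes that NF-κB induces and that act back on the pathway, NFKBIA, NFKBIZ, TNFAIP3 and BIRC3. All 10 symbols were found in the table. RNA of the frontal cortex of adult marmosets (Callithrix jacchus, a New World monkey) was sequenced in 4 libraries. In 2 libraries the genotype was labelled wild type, and in the other 2 it was labelled as an APP transgene, which the series title describes as mutant amyloid precursor protein under the human EF1α promoter, a promoter used for broad expression. By label the transgenic animals were female, and no sex is given for wild-type animals. It is not stated that each library is from its own animal, so p-values measure the spread between these libraries, which may be technical.

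TNF is a secreted and membrane-bound cytokine that binds TNFRSF1A on the target cell and, through adaptor proteins and ubiquitin chains, switches on the IKK kinases. These mark the inhibitor IκBα for destruction, which lets NF-κB dimers enter the nucleus and start transcription. Among the genes switched on are those of the pathway's own inhibitors, so that NFKBIA, which encodes IκBα, and TNFAIP3, which encodes the ubiquitin-editing enzyme A20, are widely used as readouts of NF-κB activity. In brain, microglia are a main source of TNF, and astrocytes, endothelial cells and neurons carry its receptor.

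Total counts lay between 12657323 and 18932180 per library. Values are given in CPM, counts scaled to library size and composition, which are not divided by gene length, so levels are compared between libraries and not between genes. A count of 3, taken as the limit below which a level cannot be told from 0, was 0.166 to 0.232 CPM. Transgenic library 2 stood apart from the other 3 libraries: the chi-square per degree of freedom over genes was 37.6 to 48.1 in pairs that included it and 7.62 to 12.9 in the other pairs. APP itself was at 1822 and 2182 CPM in wild-type libraries 1 and 2, against 2143 and 2748 CPM in the transgenic pair, so the groups overlapped (edgeR adjusted p = 0.80), and whether transgene reads were counted on this gene was not tested. Because the libraries came from bulk tissue, more cells of a type and more RNA per cell cannot be told apart.

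All 10 members had their highest level in transgenic library 2. Over all genes tested, a set that holds 9 of the members and not TNF, 35.1% had their highest level there. In transgenic library 1, 8 of the 9 members with enough counts to be tested were within 1.5-fold of the wild-type mean, a range that held 89.9% of all genes. The exception was BIRC3. No member passed edgeR's quasi-likelihood test at an adjusted p of 0.05 between transgenic and wild-type cortex, and neither did any of the 16385 genes tested (0%). At an unadjusted edgeR p under 0.05, 530 of those genes were higher and 391 lower. DESeq2 called 26 higher and 22 lower, and limma-voom called 0. The plot of member levels by library shows this arrangement.

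**Figure D1:**
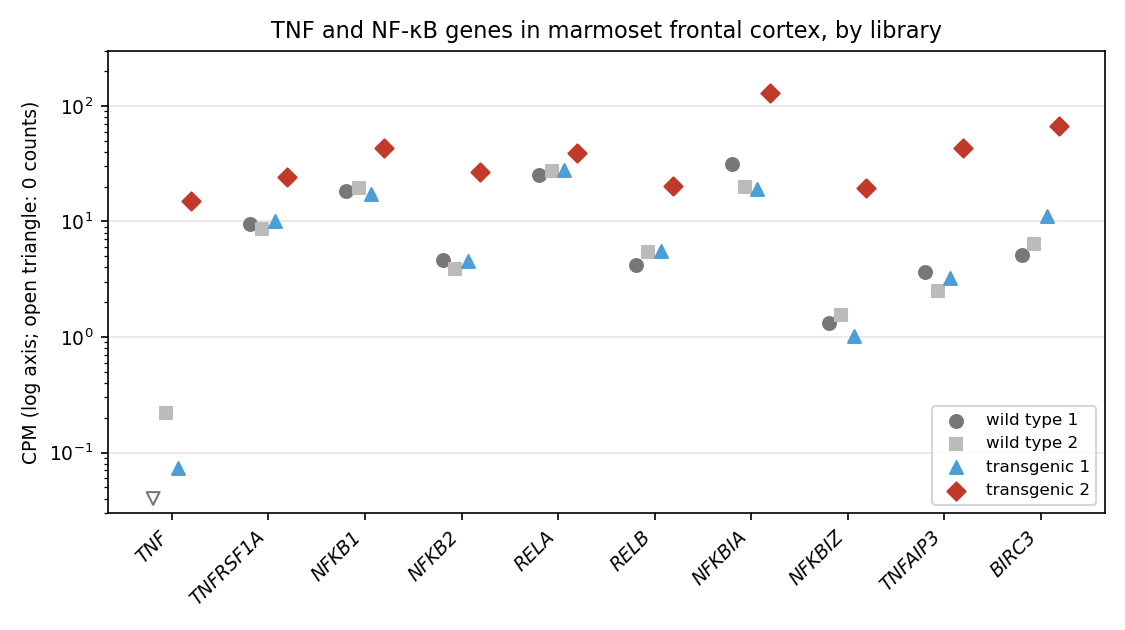
CPM of the 10 members (horizontal axis) in each library on a log axis, with 1 point per library and an open triangle for 0 counts. Transgenic library 2 is the highest point for every member, and transgenic library 1 lies within 1.5-fold of the wild-type mean in 8 of the 9 members tested. The exception is BIRC3, at 11.2 CPM against 5.11 and 6.44 CPM in wild type.

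TNF transcripts were at the limit of detection in 3 of the 4 libraries. Its counts were 0 and 3 in wild-type libraries 1 and 2, 1 in transgenic library 1 and 270 counts (15.0 CPM) in transgenic library 2. Set against the pooled wild-type libraries, the level in transgenic library 2 was 133 times as high (95% exact interval 44.9 to 647, covering counting error only). TNF was below the low-count filter of the test, which asks for enough counts in at least 2 libraries, and with all 4 libraries it could be fitted only without that filter (edgeR adjusted p = 0.71). With 0 and 3 counts in wild type and 1 in transgenic library 1, no difference between those 3 libraries was detectable at this depth.

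TNFRSF1A, the receptor through which soluble TNF acts on most cells, was at 9.44 and 8.63 CPM in the wild-type libraries, against 10.1 and 24.3 CPM in transgenic libraries 1 and 2. Both transgenic libraries lay above both wild-type libraries, but transgenic library 1 did so by less than 1 CPM. The fitted log2 fold change was 0.93 ± 0.44 (SE, n = 2 per group, edgeR adjusted p = 0.79). TNFRSF1B, the gene for the other TNF receptor and no member, had 2 and 5 counts in wild type, 6 in transgenic library 1 and 100 in transgenic library 2. Its counts relative to those of TNFRSF1A within the same library, a ratio that does not depend on scaling, were 0.016 and 0.042 in wild type, 0.044 in transgenic library 1 and 0.23 (95% exact interval 0.18 to 0.28, covering counting error only) in transgenic library 2.

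The subunit genes differed in how far transgenic library 2 stood above the rest. RELA encodes the main activating subunit of the canonical dimer, and it showed the smallest difference. It was at 25.3 and 27.5 CPM in wild type, 28.0 CPM in transgenic library 1 and 39.3 CPM in transgenic library 2, which is 1.49 times the wild-type mean. NFKB1, whose precursor protein is cut to the DNA-binding partner of RELA, was at 18.5 and 19.4 CPM in wild type, against 17.3 and 42.8 CPM in transgenic libraries 1 and 2. Transgenic library 2 was thus 2.26 times the wild-type mean, and transgenic library 1 was below both wild-type libraries.

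NFKB2 and RELB encode the partners of the non-canonical dimer and are themselves known targets of NF-κB. NFKB2 was at 4.64 and 3.88 CPM in wild type, against 4.56 and 26.8 CPM in transgenic libraries 1 and 2, a level 6.29 times the wild-type mean in the latter. RELB was at 4.18 and 5.49 CPM in wild type, against 5.51 and 20.1 CPM in the transgenic libraries, 4.16 times the wild-type mean in transgenic library 2. For RELB the groups did not overlap, yet transgenic library 1 and wild-type library 2 were within 0.1 CPM of each other. The fitted log2 fold changes were 0.35 ± 0.21 for RELA, 0.67 ± 0.43 for NFKB1, 1.89 ± 0.81 for NFKB2 and 1.41 ± 0.63 for RELB (SE, n = 2 per group), each with an edgeR adjusted p of 0.79.

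The balance between subunit transcripts could be read within each library, free of any scaling between libraries. NFKB1 had 3.98 and 5 counts for each NFKB2 count in wild type, 3.81 in transgenic library 1 and 1.60 in transgenic library 2, where the 95% exact interval was 1.42 to 1.79. RELA had 6.06 and 5.01 counts for each RELB count in wild type, 5.08 in transgenic library 1 and 1.95 in transgenic library 2 (95% exact interval 1.72 to 2.22). For both pairs the interval of transgenic library 2 lay below the intervals of the other 3 libraries, whose lowest bounds were 2.87 and 3.90. These intervals cover counting error only, and they describe 1 library.

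Of the members that could be tested, the feedback genes TNFAIP3, NFKBIZ and BIRC3 stood furthest above the wild-type mean in transgenic library 2. For TNFAIP3 and NFKBIZ the groups overlapped. TNFAIP3 was at 3.64 and 2.49 CPM in wild type, 3.23 CPM in transgenic library 1 and 43.3 CPM in transgenic library 2, 14.1 times the wild-type mean. NFKBIZ encodes IκBζ, a nuclear protein that NF-κB induces and that is needed for a later set of targets, and it was at 1.32 and 1.54 CPM in wild type, against 1.03 and 19.6 CPM in the transgenic libraries. That was 13.8 times the wild-type mean in transgenic library 2, while transgenic library 1 was the lowest of the 4.

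NFKBIA, the IκBα gene, was at 31.1 and 20.04 CPM in wild type, 19.0 CPM in transgenic library 1 and 130.0 CPM in transgenic library 2. The wild-type libraries differed here by more than for any other member tested, with wild-type library 2 at 0.64 times wild-type library 1. Transgenic library 2 was 5.08 times their mean, and transgenic library 1 was below both. Within libraries, NFKBIA had 2.497 and 1.33 counts for each count of NFKBIB, the gene of a related inhibitor, in wild type, 1.43 in transgenic library 1 and 7.85 in transgenic library 2. With NFKBIE, the gene of the inhibitor IκBε, the ratio was 1.95 and 0.97 in wild type, 1.08 in transgenic library 1 and 5.22 in transgenic library 2, so the inhibitor transcripts did not move in proportion to each other.

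BIRC3 was the member with the clearest difference in transgenic library 1. The gene encodes cIAP2, a ubiquitin ligase of the TNF receptor complex that restrains cell death. Its level was 5.11 and 6.44 CPM in wild type (66 and 88 counts), 11.2 CPM in transgenic library 1 (153 counts) and 67.2 CPM in transgenic library 2 (1213 counts). Transgenic library 1 was thus 1.95 times and transgenic library 2 11.6 times the wild-type mean, and the groups did not overlap. Per count of BIRC2, the gene of the related ligase cIAP1, BIRC3 had 0.14 and 0.13 counts in wild type, 0.26 (95% exact interval 0.22 to 0.31) in transgenic library 1 and 1.30 in transgenic library 2. The interval covers counting error in 1 library and not the spread between libraries. BIRC2 itself was at 36.6 and 49.3 CPM in wild type, against 43.1 and 51.8 CPM in the transgenic libraries.

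Over both transgenic libraries BIRC3 had the smallest p among the members, with a log2 fold change of 2.77 ± 0.84 (SE, n = 2 per group, edgeR adjusted p = 0.79). Without transgenic library 2 its log2 fold change was 0.96 ± 0.27 (edgeR adjusted p = 0.77), with transgenic library 1 as the only transgenic sample. TNFAIP3 was at 2.93 ± 1.15 (edgeR adjusted p = 0.79), NFKBIZ at 2.86 ± 1.26 and NFKBIA at 1.55 ± 0.85, both also with an adjusted p of 0.79. BIRC3 and TNFAIP3 were the 2 members of 9 that were higher at an unadjusted edgeR p under 0.05, against 3.23% of all genes tested. DESeq2 called none of the 9, where it called 0.293% of all genes, and limma-voom called none.

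All 9 members tested had a fitted fold change above 1, as did 49.6% of all genes. Their median log2 fold change was 1.55, beside -0.0022 over all genes. It came to 0.081 when transgenic library 2 was left out. Without transgenic library 1 it was 2.5, but that fit also takes in TNF through its counts in transgenic library 2. NFKBIA, the middle of the same 9 members in that fit, was at 2.35. In 4 of the 9 members (TNFRSF1A, RELA, RELB and BIRC3) both transgenic libraries lay above both wild-type libraries, as was so for 19.5% of all genes, and in the other 5 the groups overlapped. Transgenic library 2 was more than 2-fold above the wild-type mean in 8 of the 9, all but RELA, against 4.25% of all genes, while transgenic library 1 was so in 0 of the 9 (1.93% of all genes). Without transgenic library 2 the sign of NFKB1, NFKBIA and NFKBIZ turned, to log2 fold changes of -0.13, -0.43 and -0.47.

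When transgenic library 2 alone was compared with the wild-type pair, 8 of those 9 members passed edgeR's test as higher, against 4.35% of the genes kept with all libraries. TNF enters this fit only through its counts in transgenic library 2, so it is left out of this count and given no test. This test compares 1 library with the wild type and takes its spread from the wild-type pair, so it does not speak for the genotype. The log2 differences ran from 3.82 ± 0.25 (SE) for TNFAIP3, 3.77 ± 0.28 for NFKBIZ and 3.54 ± 0.20 for BIRC3, through 2.65 ± 0.23 for NFKB2, 2.35 ± 0.23 for NFKBIA and 2.05 ± 0.25 for RELB, to 1.43 ± 0.20 for TNFRSF1A, 1.18 ± 0.18 for NFKB1 and 0.57 ± 0.17 for RELA. RELA was the member that did not pass (adjusted p = 0.083). In this order the steps from BIRC3 to NFKB2, from RELB to TNFRSF1A and from NFKB1 to RELA exceeded the combined SE of the 2 genes, and the other steps did not.

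**Figure D2:**
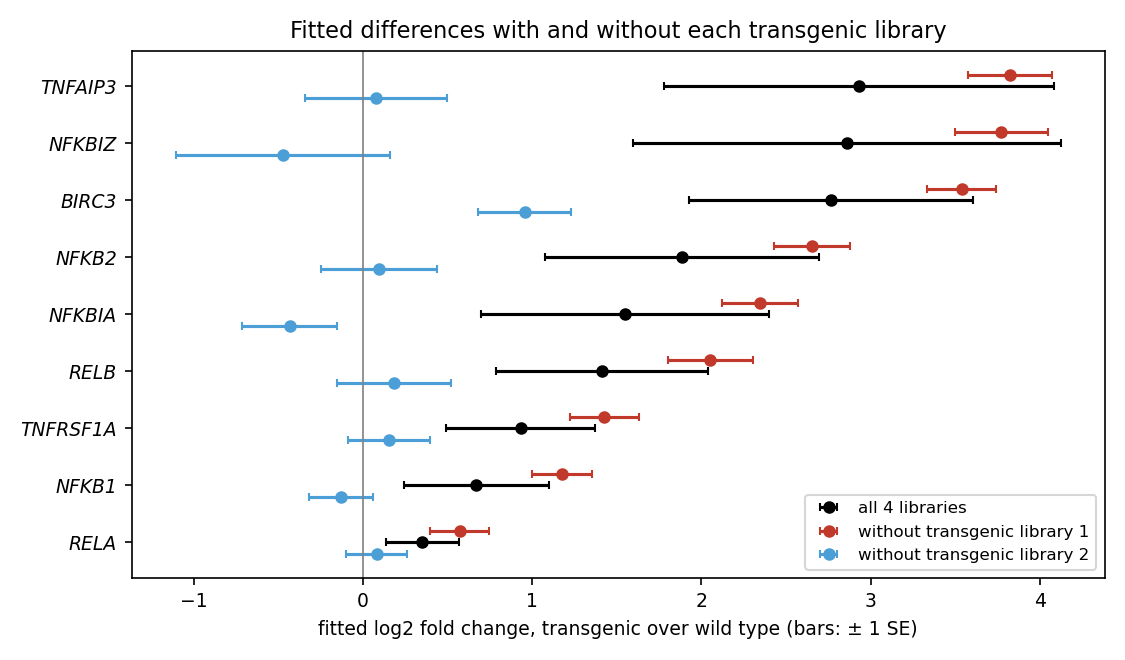
Fitted log2 fold change of the 9 members tested (vertical axis), transgenic over wild type, with bars of 1 SE, for all 4 libraries, without transgenic library 1 and without transgenic library 2. The values without transgenic library 2 run from -0.47 for NFKBIZ and -0.43 for NFKBIA to 0.96 for BIRC3, and those without transgenic library 1 run from 0.57 for RELA to 3.82 for TNFAIP3.

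The rest of the pathway was taken from 6 lists grouped by role, of 107 genes in all, of which 105 were in the table and 86 had enough counts to be tested. None of the 86 passed edgeR's test, DESeq2's or limma-voom's. At an unadjusted p under 0.05, 11 were higher and 0 lower, against 3.23% of all genes on the higher side. In transgenic library 2 the lists did not look alike: the median log2 deviation from the wild-type mean was 2.502 for genes that NF-κB induces, and -0.04 and -0.01 for the receptor complex and the IKK kinases, which carry the signal to NF-κB. More than 2-fold above that mean were 2 of the 18 receptor complex genes and 2 of the 9 IKK genes (4.25% of all genes). More than 2-fold below it were 0 and 1 (1317 of all 16385 genes). The plot of pathway genes by role sets the lists side by side.

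**Figure D3:**
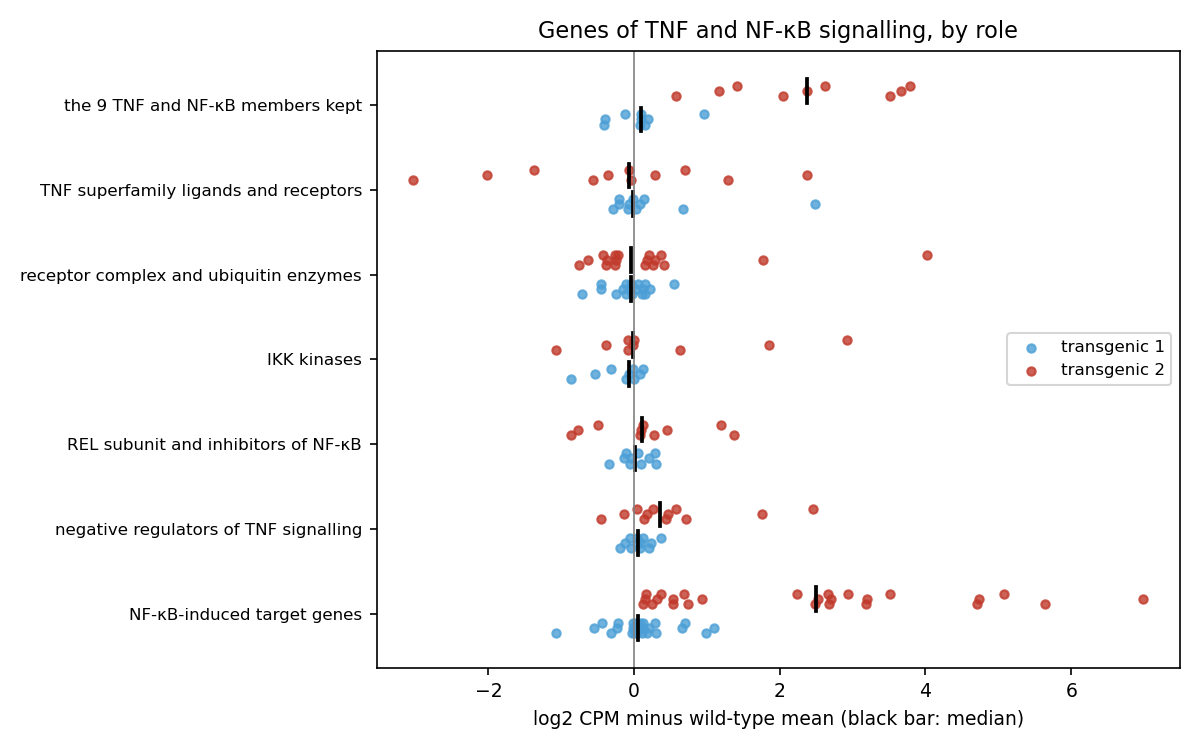
Log2 CPM minus the wild-type mean (horizontal axis) of each tested gene in transgenic libraries 1 and 2, by role, with a black bar at the median of each list. In transgenic library 2 the medians are 2.37 for the 9 members and 2.502 for the NF-κB-induced targets and lie between -0.07 and 0.35 for the other 5 lists, while in transgenic library 1 they lie between -0.06 and 0.10.

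Among ligands and receptors of the TNF superfamily, 11 of 18 genes were tested, 5 with a fold change above 1 and 6 below, and the median log2 fold change was -0.07. In transgenic library 2, 5 of the 11 were within 1.5-fold of the wild-type mean, against 73.3% of all genes. LTB and CD40 were more than 2-fold above that mean there (4.25% of all genes). TNFRSF11B, TNFRSF19 and EDAR were more than 2-fold below it (1317 of all 16385 genes). LTB, which encodes lymphotoxin β, was at 0.77 and 0.80 CPM in wild type, against 0.88 and 4.65 CPM in transgenic libraries 1 and 2. Its receptor gene LTBR was at 5.34 and 5.63 CPM in wild type, against 5.22 and 4.26 CPM in the transgenic libraries. FAS, a death receptor gene, was at 0.93 and 1.10 CPM in wild type, against 1.69 and 1.72 CPM in the transgenic libraries, which were level with each other. For LTB, LTBR and FAS the edgeR adjusted p ranged from 0.79 to 0.86.

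The receptor complex and its ubiquitin enzymes had 18 genes tested, 8 with a fold change above 1 and 10 below, and their median was -0.03 in log2. In transgenic library 2, 14 of the 18 were within 1.5-fold of the wild-type mean, as were 73.3% of all genes. TRAF1, an adaptor gene that NF-κB induces, was at 0.70 and 0.29 CPM in wild type, against 0.73 and 9.58 CPM in the transgenic libraries. TRAF2, the constitutive adaptor that recruits the cIAP ligases, was lower in both transgenic libraries, at 9.67 and 9.36 CPM against 6.91 and 6.09 CPM (log2 fold change -0.55 ± 0.24 SE, edgeR adjusted p = 0.79). The kinase gene RIPK1 was at 10.7 and 7.09 CPM in wild type, against 9.70 and 29.9 CPM in the transgenic libraries.

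The IKK kinases and their partners had 9 genes tested, 6 with a fold change above 1 and 3 below, and the median log2 fold change was 0.0072. In transgenic library 2, 5 of the 9 were within 1.5-fold of the wild-type mean, against 73.3% of all genes. IKBKE was at 0.70 and 1.46 CPM in wild type, against 0.66 and 8.58 CPM in the transgenic libraries. MAP3K8 was at 2.71 and 1.46 CPM in wild type, against 1.03 and 7.59 CPM. CHUK, the IKKα gene, was at 26.0 and 26.7 CPM in wild type, against 28.0 and 24.97 CPM in the transgenic libraries, and its sign turned with the scaling. IKBKB, the gene for the kinase that phosphorylates IκBα, was at 10.99 and 11.6 CPM in wild type, against 10.8 and 17.6 CPM in the transgenic libraries. MAP3K14 encodes the kinase that starts the non-canonical route to NFKB2 processing. It was at 8.28 and 12.2 CPM in wild type, against 8.01 and 4.71 CPM in transgenic libraries 1 and 2, the opposite direction to NFKB2 and RELB in transgenic library 2. TANK, an adaptor gene, was at 16.6 and 16.9 CPM in wild type, against 15.4 and 12.7 CPM in the transgenic libraries.

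REL, the gene for the remaining NF-κB subunit, was at 7.97 and 8.04 CPM in wild type, against 9.77 and 18.6 CPM in the transgenic libraries, without overlap of the groups. BCL3, which encodes an atypical inhibitor that works in the nucleus, was at 2.48 and 2.85 CPM in wild type, against 3.09 and 7.09 CPM. The classical inhibitor gene NFKBIB was at 12.5 and 15.1 CPM in wild type, against 13.2 and 16.6 CPM in transgenic libraries 1 and 2. NFKBIE was at 15.9 and 20.6 CPM in wild type, against 17.6 and 24.9 CPM. In this list of the REL subunit and inhibitors, 10 genes were tested, 6 with a fold change above 1 and 4 below. The median log2 fold change was 0.11. The groups overlapped in 5 of the 10, beside 10014 of all 16385 genes tested.

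Of the negative regulators of TNF signalling, 12 of 14 were tested, 10 with a fold change above 1 and 2 below, and the median log2 fold change was 0.16. CFLAR, whose product blocks caspase-8, was at 12.4 and 15.6 CPM in wild type, against 17.9 and 47.3 CPM in the transgenic libraries (log2 fold change 1.23 ± 0.47 SE, edgeR adjusted p = 0.79). CYLD, the gene for a deubiquitinase, was at 96.6 and 93.5 CPM in wild type, against 112 and 129 CPM. In both genes the groups did not overlap. They did in 8 of the 12 genes tested here, beside 10014 of all 16385 genes tested. TNIP1, whose product works with A20, was at 55.1 and 48.4 CPM in wild type, at 44.98 CPM in transgenic library 1 and 71.2 CPM in transgenic library 2, so its groups overlapped.

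Known NF-κB targets were, like the members, highest in transgenic library 2 for the most part. Of 36 genes, 26 were tested, 24 of them with a fold change above 1 and 2 below. Their median log2 fold change was 1.74, which came to 0.022 without transgenic library 2. The highest of the 4 libraries was transgenic library 2 in 23 of the 26 tested, against 35.1% of all genes tested. Transgenic library 2 was more than 2-fold above the wild-type mean in 15 of the 26, against 4.25% of all genes tested. ICAM1, the gene for a leukocyte adhesion protein, had 9 and 7 counts in wild type, 18 in transgenic library 1 and 1685 in transgenic library 2 (log2 fold change 6.28 ± 2.02 SE, edgeR adjusted p = 0.79). The mitochondrial superoxide dismutase gene SOD2 was at 68.7 and 62.2 CPM in wild type, against 64.8 and 309 CPM. GADD45B, a stress response gene, was at 21.8 and 20.2 CPM in wild type, against 24.3 and 133 CPM.

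CEBPD, a transcription factor gene of the acute phase response, was at 3.33 and 3.29 CPM in wild type, 5.29 CPM in transgenic library 1 and 22.4 CPM in transgenic library 2. IER3, an early response gene, was at 4.02 and 5.34 CPM in wild type, against 5.73 and 8.97 CPM in the transgenic libraries. Without transgenic library 2 their log2 fold changes were 0.67 and 0.29, neither with an edgeR adjusted p below 0.96. CEBPD, like BIRC3, ICAM1, GADD45B and IER3, was above both wild-type libraries in transgenic library 1 as well. CEBPD was named by a rule that asks for groups without overlap, so for it this was set by the choice. In 9 of the 26 targets tested both transgenic libraries lay above both wild-type libraries, against 19.5% of all genes.

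Over the 4 libraries, the 5 genes with the pattern most like that of NFKBIA were MTHFD2, CLEC7A, NLRC5, SOD2 and PSMB8. Likeness was the Euclidean distance between log2 CPM deviations from the wild-type mean, among 11966 named genes with a mean count of at least 50, and these 5 lay at 0.30 to 0.55. The nearest member, NFKB2, lay at 0.61, TNFAIP3 at 1.499 and RELA at 1.94. MTHFD2, a mitochondrial folate enzyme gene, was at 9.05 and 5.34 CPM in wild type, against 6.39 and 38.4 CPM in transgenic libraries 1 and 2.

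Levels of cell type markers also differed in transgenic library 2. The 14 microglia and macrophage markers summed to 284 and 342 CPM in wild type and to 202 and 186 CPM in transgenic libraries 1 and 2, with TMEM119 at 3 counts in transgenic library 2. The 14 markers of infiltrating leukocytes summed to 23.1 and 26.6 CPM in wild type, 18.4 CPM in transgenic library 1 and 286 CPM in transgenic library 2. Of the latter, S100A9 made up 205 CPM and S100A8 32.4 CPM, and without these 2 genes, left out after the values were seen, the sums were 22.1, 26.0, 18.2 and 48.2 CPM. In transgenic library 2 the common leukocyte gene PTPRC was at 3.28 times the wild-type mean (459 counts), ITGAX at 2.43 times (193 counts) and the T cell gene CD2 at 1.66 times (119 counts), with no call by edgeR over all libraries. CD8A was at 0.90 times (16 counts) and CSF3R at 0.68 times (79 counts). The T cell genes CD3E and CD3D, the B cell gene MS4A1 and the monocyte gene CCR2 had 0 counts in transgenic library 2, but had at most 5 counts in any library, too few to compare.

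Markers of astrocytes summed to 8336 and 6934 CPM in wild type, 7463 CPM in transgenic library 1 and 2645 CPM in transgenic library 2. SLC1A2 alone was at 4922, 4173, 4337 and 999 CPM in the same order. In transgenic library 2, 6 of the 10 astrocyte markers were more than 2-fold below the wild-type mean. GFAP was at 1.05 times and AGT at 0.95 times that mean there. For oligodendrocytes the sums were 3333, 2640, 3301 and 1202 CPM, and for endothelial cells 440.4, 337, 286 and 207 CPM. Pericyte, fibroblast and meningeal markers summed to 233, 359, 415 and 246 CPM in the same order, and the 3 blood genes matched to 16.1, 1.10, 0.59 and 6.81 CPM. Neuron markers summed to 12076 and 13452 CPM in wild type and to 12186 and 14064 CPM in the transgenic libraries, and no marker in these lists passed edgeR's test. DESeq2 called 1 of them, the microglial adaptor gene TYROBP, as lower (log2 fold change -1.35 ± 0.35 SE, DESeq2 adjusted p = 0.044). Its levels were 15.0 and 19.6 CPM among wild-type libraries, against 7.35 CPM (transgenic library 1) and 6.26 CPM (transgenic library 2), and the groups did not overlap. The part of these cell types in the levels of the members was not tested.

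**Figure D4:**
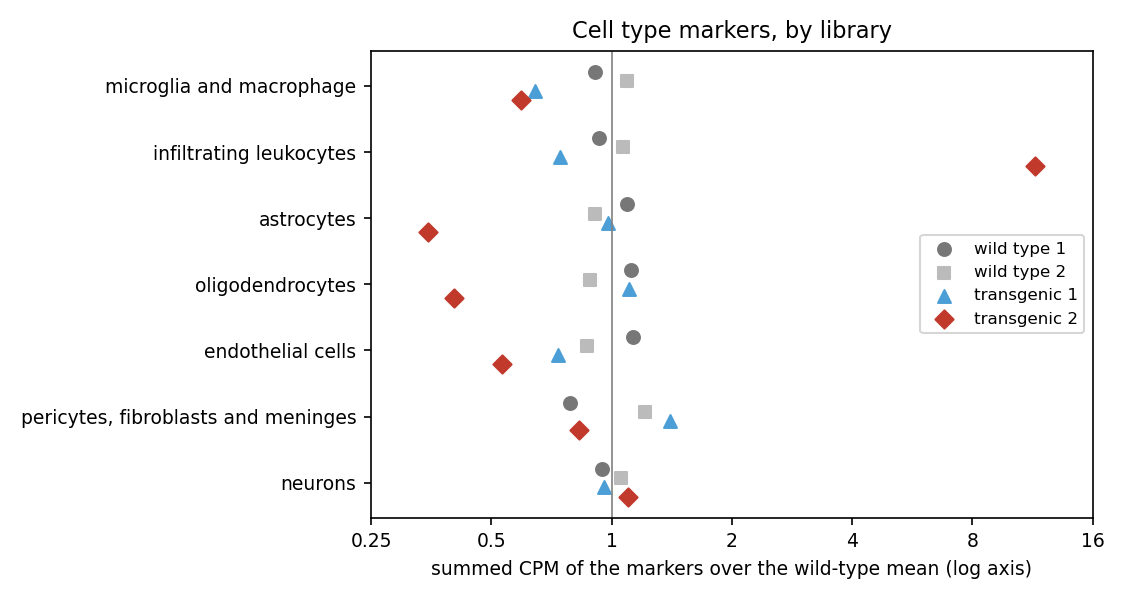
Summed CPM of the markers of 7 cell types (vertical axis) in each library, divided by the wild-type mean, on a log axis. Transgenic library 2 is at 11.5 times the wild-type mean for infiltrating leukocytes. S100A8 and S100A9 make up most of that sum (48.2 of 286 CPM without them). Transgenic library 2 is at 0.35 to 0.59 times for astrocytes, oligodendrocytes, endothelial cells and microglia. SLC1A2 makes up 4922 and 4173 CPM of the astrocyte sums in wild type and 999 CPM in transgenic library 2. Transgenic library 1 is at 0.64 times for microglia and 0.74 times for endothelial cells.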

How the data were processed

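Frontal cortex RNA of 4 libraries (2 wild type, 2 transgenic, grouped by title) was analysed from the count table the authors deposited, which holds whole-number reads per gene symbol with no normalization. Tools named in the submitters' processing notes, with no role given, are featureCounts 1.5.2, kallisto 0.46.2 and STAR 2.5.3a. Neither build, annotation nor strandedness is given in the sources used here. In another marmoset assembly, calJac240_pri, NFKB1 and NFKB2 each overlap a long non-coding RNA gene and RELB a small nuclear RNA gene, whose reads might not be told apart. No coordinates or sequences are printed, and 0 sample columns were left out.

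Genes were filtered with filterByExpr (16385 kept) and scaled by TMM, and edgeR 4.0.16 in R 4.3.3 tested genotype with 2 residual degrees of freedom and Benjamini-Hochberg adjustment over all genes kept (threshold 0.05). An SE is the log2 fold change divided by the square root of F. An exact permutation test of 2 against 2 cannot go below p = 0.33, so none was used. Deviations are on log2 CPM with a prior count of 2.

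The members and lists were chosen with earlier results of these data known. Named were all members, APP, 17 fixed pathway genes and, per list, the 2 genes of smallest p whose groups did not overlap and whose counts averaged 20 or more. IKBKE, MAP3K8, CD40, TNFRSF11B, TNFRSF19 and EDAR were named after the values were seen. Alternatives were DESeq2 1.42.0, limma-voom (limma 3.58.1), RLE scaling, library totals, no low-count filter, a mean count of at least 50, the replicate number as a block and leaving out each library. The steps were also run on simulated data, in which both transgenic libraries shared each planted difference. Such data cannot show how the steps handle a difference carried by 1 library. RNF31 and UBE2N of the lists, and the globin genes HBA1, HBA2 and HBB of a blood marker list with 1 gene tested, were not matched by symbol and are not analysed here.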

Additional observations from a re-analysis of the deposited data

How the results depend on the processing

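Between all libraries, edgeR called 0 genes, DESeq2 48, and edgeR with no filter on low counts 5, none of them a member or a listed pathway gene. Leaving out each library in turn gave 0 to 1710 calls over all genes, 0 to 9 among the members and 0 to 39 among pathway genes, with every highest value reached without transgenic library 1. Of these highest counts, 8 members and 26 higher and 2 lower pathway genes had enough counts to be tested with all libraries, and the others, TNF among them, did not. There were 3 calls over all genes without transgenic library 2. The members' median log2 fold change ranged from 0.081 (without transgenic library 2) to 2.5 (without transgenic library 1, TNF included). NFKBIA, the middle of the other 9 in the latter fit, was at 2.35. Signs turned when a library was left out for NFKB1 (-0.13 to 1.18), NFKBIA (-0.43 to 2.35), NFKBIZ (-0.47 to 3.77), IKBKB (-0.069 to 0.63), NFKBIB (-0.061 to 0.27), NFKBIE (-0.056 to 0.45), TNIP1 (-0.21 to 0.46), SOD2 (-0.017 to 2.24) and CHUK (-0.078 to 0.084). CHUK was also at -0.0011 with limma-voom, -0.037 with library totals and -0.0012 with a mean count of at least 50. The 9 members kept their sign and passed no threshold under the 7 alternatives that use all libraries. With the replicate block edgeR called 0 genes, 0 members and 0 pathway genes, and the members' median was 1.16. The deviations of same-numbered libraries correlated at -0.14 over genes. With the numbers crossed as a block, added after the data were seen, the 3 counts were again 0. At this depth TNF could not be told from 0 in wild-type library 1 and transgenic library 1.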
